A study of Mus musculus with 12 samples.

Results

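The genes of TGF-beta secretion, storage and reception were followed in the infarct border zone of the mouse heart. The 10 genes are the ligands Tgfb1, Tgfb2 and Tgfb3, the receptors Tgfbr1, Tgfbr2 and Tgfbr3, and the latent TGF-beta binding proteins Ltbp1, Ltbp2, Ltbp3 and Ltbp4. They were chosen by name, with earlier results of these data known, among the rows that the platform annotation gives exactly 1 gene symbol. They make up 10 of the 20352 genes so measured, with 205 of the 241576 probesets of the array. All 10 were measured, and no filter on dim signal was applied. The infarcted group holds 6 hearts from C57BL/6J mice aged 12 weeks, sampled at the infarct border 2 weeks after surgery. The sham group holds 6 hearts of the same strain and age, sampled 2 weeks after sham surgery at what the labels call the border zone of a sham infarct. The labels record no transgene, drug or other treatment in either group, and the series text calls the hearts of a condition biological replicates. The series title names a comparison of injured zebrafish and mouse hearts. The arrays used are all of mouse hearts, and the comparison asks which of these genes differ between infarcted and sham tissue.

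TGF-beta is secreted in a latent form, in which the mature ligand stays wrapped in its own propeptide. A latent binding protein ties that complex to the extracellular matrix until integrins, proteases or thrombospondin release the ligand. The free ligand is bound by the type II receptor, which phosphorylates the type I receptor, and the type I receptor in turn activates the Smad proteins that carry the signal to the nucleus. In the injured heart the pathway is known for driving fibroblasts to make matrix.

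The values are log2 signals, and the value of a gene on an array is the median over its probesets. A change is infarcted minus sham on that scale, with a 95% interval, and a fold is the same change as a ratio. A gene was called when its p-value from limma's moderated linear model, adjusted over all 20352 genes by the Benjamini-Hochberg method, was under 0.05. The number of arrays, 6 per group, limits the precision of every value. The tissue was measured in bulk, so fewer cells of a type and less RNA per cell cannot be told apart. The 12 arrays had medians between 6.997 and 7.058 and correlated with each other between 0.956 and 0.979, and no pair was identical. Cardiomyocyte markers, the defining genes of the labelled tissue, averaged 13.15 to 13.27 in infarcted arrays and 13.25 to 13.33 in sham arrays.

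Of the 10 genes, 7 were higher in infarcted tissue, 1 was lower and 2 were not called. Over all genes tested, 20.3% were called, 10.1% higher and 10.2% lower. The 7 higher genes were Tgfb2, Tgfb3, Tgfbr1, Tgfbr2, Ltbp2, Ltbp3 and Ltbp4, and for each of them every infarcted array lay above every sham array, which held for 5.97% of all genes. For none of the 10 did every infarcted array lie below every sham array, which held for 5.29% of all genes. Tgfbr3 was the gene that fell, and Tgfb1 and Ltbp1 were not called. The median change of the 10 genes was 0.71, against -0.04 over all genes.

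**Figure D1:**
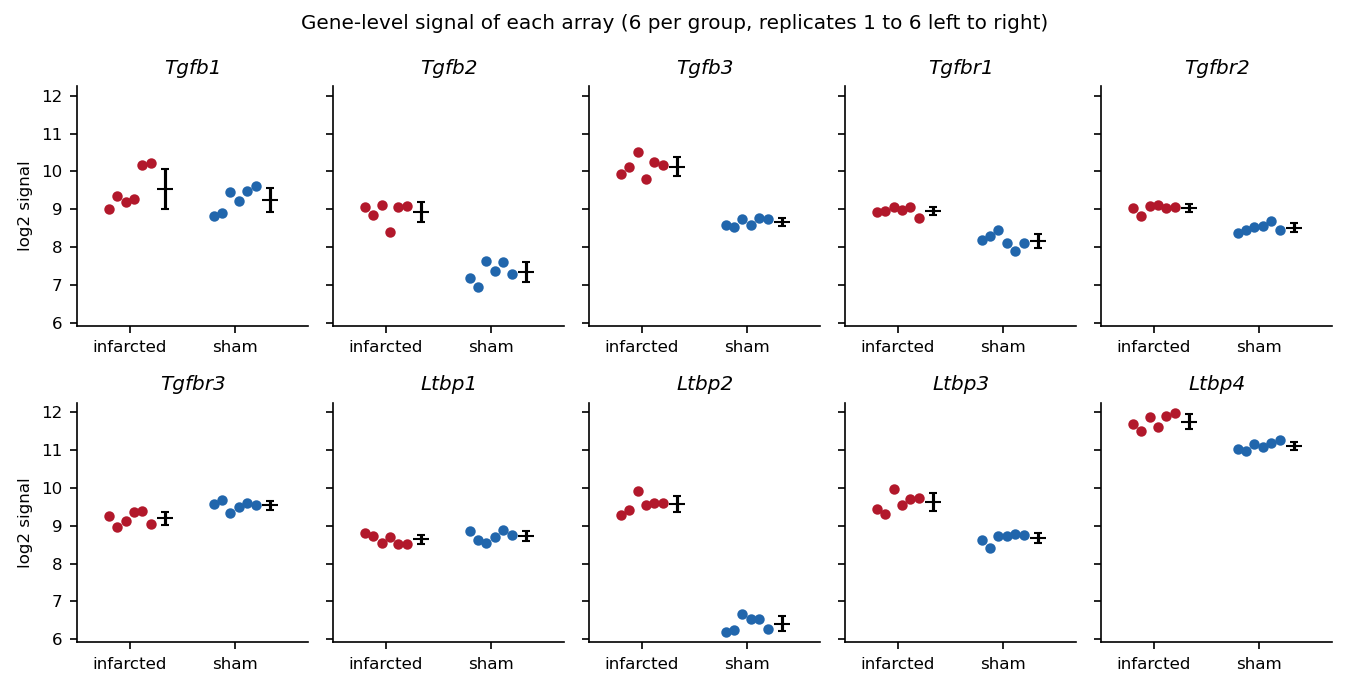
Gene-level log2 signal of the 10 genes on each array, one panel per gene, with infarcted arrays in red and sham arrays in blue. Each point is 1 array, with replicates 1 to 6 from left to right, and the bar beside a group is its mean and SD (n = 6). The groups do not overlap in the 7 genes that were called higher, and they overlap in Tgfb1, Tgfbr3 and Ltbp1.

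The ligands did not change alike. Tgfb2 ran from 8.41 through a median of 9.06 to 9.11 on the log2 scale in infarcted arrays, and from 6.96 through 7.33 to 7.64 in sham arrays. The groups did not overlap, and infarcted replicate 4 was the lowest of its group. Tgfb2 encodes the isoform that needs the co-receptor betaglycan for high-affinity binding to the type II receptor. It rose 3.02-fold (95% interval 2.46 to 3.70), with means of 8.93 ± 0.27 in infarcted and 7.34 ± 0.26 in sham arrays (SD, n = 6 each, limma adjusted p = 2.34e-06).

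Tgfb3, the isoform best known from palate closure, ran from 9.80 through a median of 10.14 to 10.52 in infarcted arrays, against 8.53 through 8.66 to 8.76 in sham arrays. The groups did not overlap, and the spread was larger among the infarcted arrays. Tgfb3 rose 2.78-fold (95% interval 2.38 to 3.25), with means of 10.13 ± 0.25 in infarcted and 8.65 ± 0.11 in sham arrays (SD, n = 6 each, limma adjusted p = 3.59e-07).

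Tgfb1, the ligand most often studied in fibrosis, was not called. It ran from 9.01 through a median of 9.31 to 10.23 in infarcted arrays, and from 8.81 through 9.34 to 9.61 in sham arrays. Infarcted replicates 5 and 6 lay above all sham arrays at 10.16 and 10.23, and the other 4 infarcted arrays lay within the sham range. The means were 9.54 ± 0.52 in infarcted and 9.25 ± 0.32 in sham arrays (SD, n = 6 each), a change of 0.29 with a 95% interval of -0.18 to 0.75 (limma adjusted p = 0.4).

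The result for Tgfb1 depended on how its 9 probesets were summarised. All 9 had a higher mean in infarcted than in sham arrays, with changes between 0.07 and 0.64, and 3 of them passed on their own. Averaging the 9 probesets in place of taking their median gave 8.96 to 9.38 in infarcted arrays and 8.35 to 8.97 in sham arrays. The change was then 0.40 (95% interval 0.17 to 0.62), and the gene was called (limma adjusted p = 0.0108). The median was drawn from different probesets on different arrays. On sham replicates 1 to 4 and infarcted replicates 2 and 3 it equalled the value of a probeset (number 7 of the plot of Tgfb1 probesets) that changed by 0.17 and varied more within groups (standard error 0.29) than the 3 that passed (standard errors 0.11 to 0.15). With dim probesets left out the median changed by 0.37 and was not called (limma adjusted p = 0.169).

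**Figure D2:**
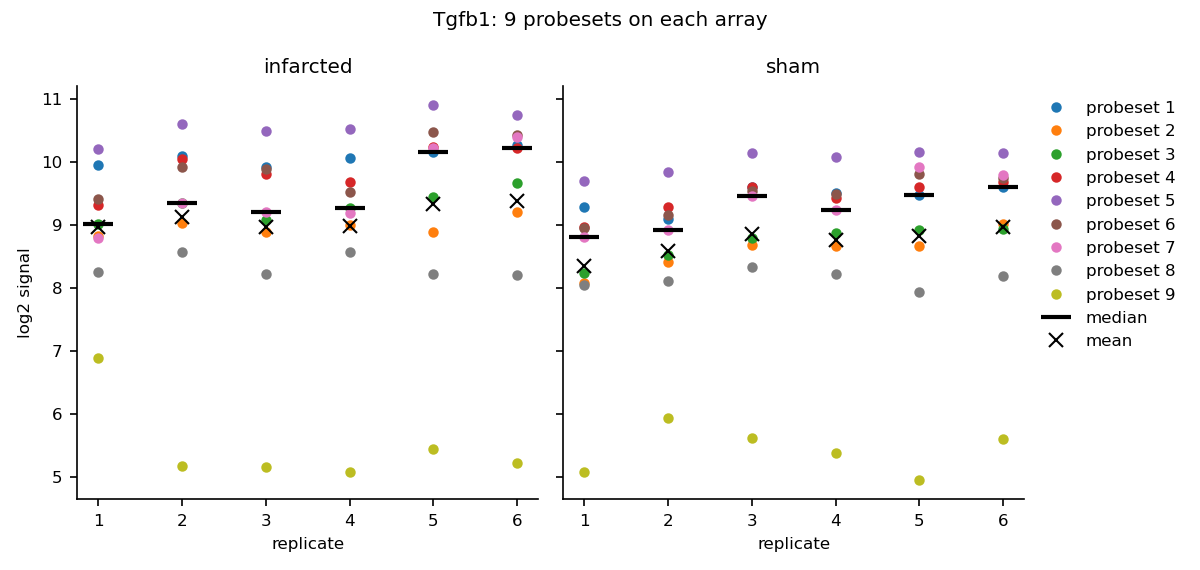
Log2 signal of the 9 Tgfb1 probesets on each of the 6 infarcted arrays (left) and the 6 sham arrays (right), by replicate number. Bars mark the median over the probesets and crosses their mean. The median of infarcted replicates 5 and 6 lies at 10.16 and 10.23, and the means of the 2 groups run from 8.96 to 9.38 and from 8.35 to 8.97.

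The signalling receptors rose and the co-receptor fell. Tgfbr1, the type I receptor kinase, ran from 8.77 through a median of 8.96 to 9.06 in infarcted arrays, against 7.90 through 8.14 to 8.44 in sham arrays. The groups were clearly separated, and the infarcted arrays were close together. Tgfbr1 rose 1.72-fold (95% interval 1.51 to 1.97), with means of 8.96 ± 0.11 in infarcted and 8.17 ± 0.18 in sham arrays (SD, n = 6 each, limma adjusted p = 2.76e-05).

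Tgfbr2, the type II receptor that binds ligand first, ran from 8.82 through a median of 9.06 to 9.11 in infarcted arrays, against 8.37 through 8.50 to 8.70 in sham arrays. Infarcted replicate 2 stood below the other infarcted arrays, at 8.82, and still above every sham array. Tgfbr2 rose 1.43-fold (95% interval 1.28 to 1.60), with means of 9.03 ± 0.10 in infarcted and 8.51 ± 0.11 in sham arrays (SD, n = 6 each, limma adjusted p = 0.00021).

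Tgfbr3 encodes betaglycan, a proteoglycan co-receptor without a kinase domain that presents TGF-beta2 to the type II receptor. It ran from 8.97 through a median of 9.19 to 9.40 in infarcted arrays, against 9.34 through 9.57 to 9.69 in sham arrays. The ranges overlapped, with 4 infarcted arrays below all sham arrays and replicates 4 and 5 within the sham range. Tgfbr3 fell by 0.35 on the log2 scale (95% interval -0.55 to -0.16), with means of 9.19 ± 0.18 in infarcted and 9.55 ± 0.12 in sham arrays (SD, n = 6 each, limma adjusted p = 0.0118). All 17 of its probesets had a lower mean in infarcted arrays, with changes from -0.51 to -0.14, of which 3 passed on their own.

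Ltbp2 changed most among the 10 genes, and 8 genes of the whole table rose further. It ran from 9.29 through a median of 9.59 to 9.93 in infarcted arrays, and from 6.21 through 6.41 to 6.67 in sham arrays. No other member had such a gap between its groups. Ltbp2 rose 8.95-fold (95% interval 7.59 to 10.6), with means of 9.57 ± 0.21 in infarcted and 6.41 ± 0.19 in sham arrays (SD, n = 6 each, limma adjusted p = 6.64e-10). Its protein shares the domain plan of the family and lies on microfibrils, but unlike the other members it is known not to bind latent TGF-beta.

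Ltbp3, which binds the latent forms of all TGF-beta isoforms, ran from 9.30 through a median of 9.64 to 9.98 in infarcted arrays, against 8.42 through 8.72 to 8.78 in sham arrays. Infarcted replicate 3 was the highest array, as it was for Ltbp2 and Tgfb3. Ltbp3 rose 1.94-fold (95% interval 1.65 to 2.27), with means of 9.62 ± 0.24 in infarcted and 8.67 ± 0.13 in sham arrays (SD, n = 6 each, limma adjusted p = 2.54e-05).

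Ltbp4, which takes part in elastic fibre assembly and binds latent TGF-beta1, ran from 11.49 through a median of 11.78 to 11.97 in infarcted arrays, against 10.97 through 11.13 to 11.25 in sham arrays. The groups were separate, with the lowest infarcted array above the highest sham array. Ltbp4 rose 1.56-fold (95% interval 1.36 to 1.78), with means of 11.75 ± 0.19 in infarcted and 11.12 ± 0.11 in sham arrays (SD, n = 6 each, limma adjusted p = 0.000175).

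Ltbp1, the founding member of the family, which anchors latent TGF-beta to fibrillin and fibronectin, was not called. It ran from 8.52 through a median of 8.62 to 8.81 in infarcted arrays, and from 8.54 through 8.74 to 8.88 in sham arrays. The ranges lay almost on top of each other, although 3 infarcted arrays were just below the lowest sham array. The change was -0.09 with a 95% interval of -0.26 to 0.09 (limma adjusted p = 0.502), so a rise of the size seen in Ltbp3 or Ltbp4 lies outside the interval.

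**Figure D3:**
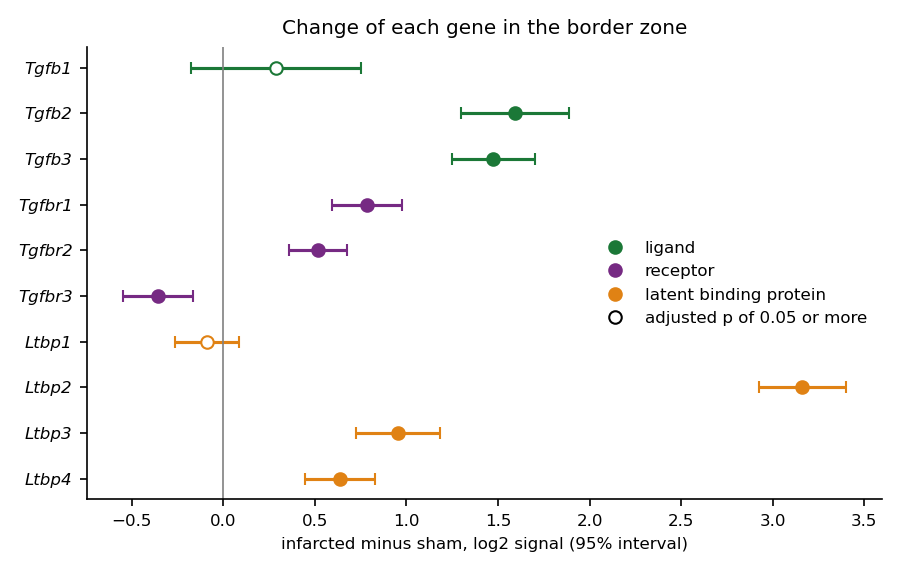
Change of each gene, infarcted minus sham, on the log2 scale, with its 95% interval from limma (6 arrays per group), coloured by role. Filled points were called at an adjusted p under 0.05. Ltbp2 stands at 3.16, Tgfb2 and Tgfb3 at 1.59 and 1.47, Tgfbr3 below 0 at -0.35, and the intervals of Tgfb1 and Ltbp1 span 0.

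The sequence just upstream is shown for members of the binding protein family with a start at or near the gene's outer end. The 250 bases before the starts of Ltbp4, and of 1 of the 2 entries of Ltbp1, lie wholly inside the gene. This family was chosen because it held both the largest change and a gene that was not called. The stretches come from RefSeq (GRCm38.p6). They give the bases of the 250 before an annotated start that lie outside the gene, 5′ to 3′ on the gene's strand. Their lengths are unequal, with 183 bases for Ltbp2, 250 for Ltbp3 and 201 for Ltbp1. Capitals mark CAGAC, the short element that Smad proteins are known to bind, on either strand (GTCTG on the other).
Ltbp2, chr12:84876559-84876741, minus strand: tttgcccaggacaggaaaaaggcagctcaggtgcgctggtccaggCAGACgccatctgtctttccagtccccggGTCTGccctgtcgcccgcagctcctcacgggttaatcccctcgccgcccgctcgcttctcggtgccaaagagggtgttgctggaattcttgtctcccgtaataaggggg
Ltbp3, chr19:5740650-5740899, plus strand: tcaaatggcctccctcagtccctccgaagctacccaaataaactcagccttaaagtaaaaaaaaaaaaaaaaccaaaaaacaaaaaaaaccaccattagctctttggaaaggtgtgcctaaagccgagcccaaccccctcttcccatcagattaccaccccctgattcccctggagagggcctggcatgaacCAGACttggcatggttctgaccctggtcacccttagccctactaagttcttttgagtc
Ltbp1, chr17:75005279-75005479, plus strand: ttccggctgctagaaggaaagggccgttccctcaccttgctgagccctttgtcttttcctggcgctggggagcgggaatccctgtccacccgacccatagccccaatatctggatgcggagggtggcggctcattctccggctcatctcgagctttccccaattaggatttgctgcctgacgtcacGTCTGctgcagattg

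The Ltbp2 stretch held 2 copies of CAGAC, and the Ltbp3 and Ltbp1 stretches held 1 each. The other Ltbp1 entry, not printed, held 2 in its 250 bases. The element is short and common. It was present in the 250 bases before the start in 42.2% of the 32851 promoter entries of the table, and in 7 of the 12 entries of the 10 genes. Of these genes, 8 had an entry, and Tgfb3 and Tgfbr3 had none. The AP-1 element TGANTCA, which reads alike on both strands, was in none of the 12 entries and in 6.75% of all entries. The Sp1 element GGGCGG, on either strand (CCGCCC on the other), was in 6 of the 12 and in 32.7% of all. A match describes the letters in this window and says nothing of binding.

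Members of a family were compared with each other within arrays, as the difference of their log2 values on the same array. The 12 pairs within the families were tested with a two-sided exact permutation test over all ways of choosing 6 of 12 arrays, whose smallest possible p is 0.00216, and p was adjusted over the 12 pairs. In 11 of the 12 pairs the changes differed. Tgfb1 changed less than Tgfb2 by 1.31 on the log2 scale (95% interval of the difference, first minus second, -1.81 to -0.80) and less than Tgfb3 by 1.19 (interval -1.71 to -0.66), each with an exact permutation p of 0.00216 and adjusted p of 0.0026. For neither pair did infarcted and sham arrays overlap. Tgfb2 and Tgfb3 could not be told apart, with a difference of 0.12 (interval -0.13 to 0.36, exact permutation p = 0.305, adjusted p = 0.305).

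Among the receptors, Tgfbr3 differed from Tgfbr1 by 1.14 (Tgfbr1 minus Tgfbr3, interval 0.86 to 1.42) and from Tgfbr2 by 0.87 (Tgfbr2 minus Tgfbr3, interval 0.66 to 1.08), each with an adjusted permutation p of 0.0026. Tgfbr1 exceeded Tgfbr2 by 0.27 in its change, a difference near its threshold (interval -0.0025 to 0.54, exact permutation p = 0.0411, adjusted p = 0.0449). The groups overlapped for that pair, and the call ended without any 1 of 8 arrays, which were infarcted replicates 1 to 5 and sham replicates 4 to 6 (adjusted p from 0.0236 to 0.104 over the 12 arrays left out in turn).

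The binding proteins formed a graded order of change in which all 6 pairs differed (adjusted permutation p = 0.0026 each). Ltbp2 exceeded Ltbp3 by 2.21 (interval 2.04 to 2.38) and Ltbp4 by 2.52 (interval 2.29 to 2.75). Ltbp3 exceeded Ltbp4 by 0.32 (interval 0.18 to 0.45). Ltbp1 lay below Ltbp4 by 0.73 (Ltbp1 minus Ltbp4, interval -1.03 to -0.42).

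The probesets of a gene cover different parts of its transcripts. Of the 205 probesets, 133 were called higher and 4 lower, against 6.39% higher and 4.3% lower over all 241576 probesets. All 37 probesets of Ltbp2 were called higher, with changes from 0.47 to 4.91, and 12 of them had a sham mean under the 30th percentile of all probesets (5.58). Of Tgfbr1, 12 of 13 were called, and of Ltbp4 31 of 34. Of Ltbp3, 23 of 26 were called, of Tgfb2 11 of 13, of Tgfb3 9 of 10 and of Tgfbr2 7 of 10. The Tgfbr1 probeset with a negative change (-0.22) had a mean of 3.31, under that percentile. An Ltbp4 probeset that is not dim also had a negative change (-0.19), with means of 6.68 in infarcted and 6.87 in sham arrays (limma adjusted p = 0.597).

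Whether probesets of the same gene changed unequally was asked with diffSplice of limma, on probesets at or above that percentile. It called 5 of the 10 genes, against 9.3% of the 15004 genes tested. They were Ltbp2 (adjusted p = 3.41e-55), Ltbp3 (adjusted p = 1.88e-11), Tgfb2 (adjusted p = 1.75e-06), Tgfbr2 (adjusted p = 0.00487) and Ltbp4 (adjusted p = 0.0339). Whether the unequal changes reflect isoforms or the probes was not tested. In Ltbp2 the probeset with the smallest change, 0.47, was also the brightest in sham arrays, at 10.06 in infarcted and 9.59 in sham arrays. The probeset with the largest measured change, 4.91, had means of 10.23 in infarcted and 5.32 in sham arrays, and the sham mean is under the 30th percentile. The percentile was taken on the mean over all 12 arrays, and 10 of the 35 Ltbp2 probesets so tested had a sham mean under it. With only probesets at or above it in both groups, an alternative chosen after seeing the data, the same 5 genes were called, against 8.18% of 14793 genes. Ltbp2 then kept 25 probesets (diffSplice adjusted p = 9.36e-41).

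In Tgfb2, 1 probeset stood out with means of 7.25 ± 0.68 in infarcted and 7.04 ± 0.42 in sham arrays (SD, n = 6 each). Its change was 1.19 below that of the other probesets (diffSplice adjusted p = 3.01e-05). The standard error of its change (0.30) was the largest of the 13 Tgfb2 probesets. In Ltbp3 the probeset least changed had means of 9.35 in infarcted and 9.19 in sham arrays, a change 0.92 below the others (diffSplice adjusted p = 3.46e-06). In Ltbp4 the probeset with the negative change lay 0.82 below the others (diffSplice adjusted p = 1.41e-06). Of the 36 Ltbp1 probesets, 29 had a negative and 7 a positive change. None was called higher and 1 was called lower (change -0.29, limma adjusted p = 0.0401). The Ltbp1 F test did not pass (adjusted p = 0.0816), but 1 probeset changed by 0.94 more than the others (diffSplice adjusted p = 6.55e-05). That probeset ran from 5.26 to 7.38 in infarcted arrays and from 4.72 to 6.60 in sham arrays, ranges that overlap, and its own change of 0.81 was not called (limma adjusted p = 0.213). The files do not place probesets on exons, so the transcript parts behind these values are not named.

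**Figure D4:**
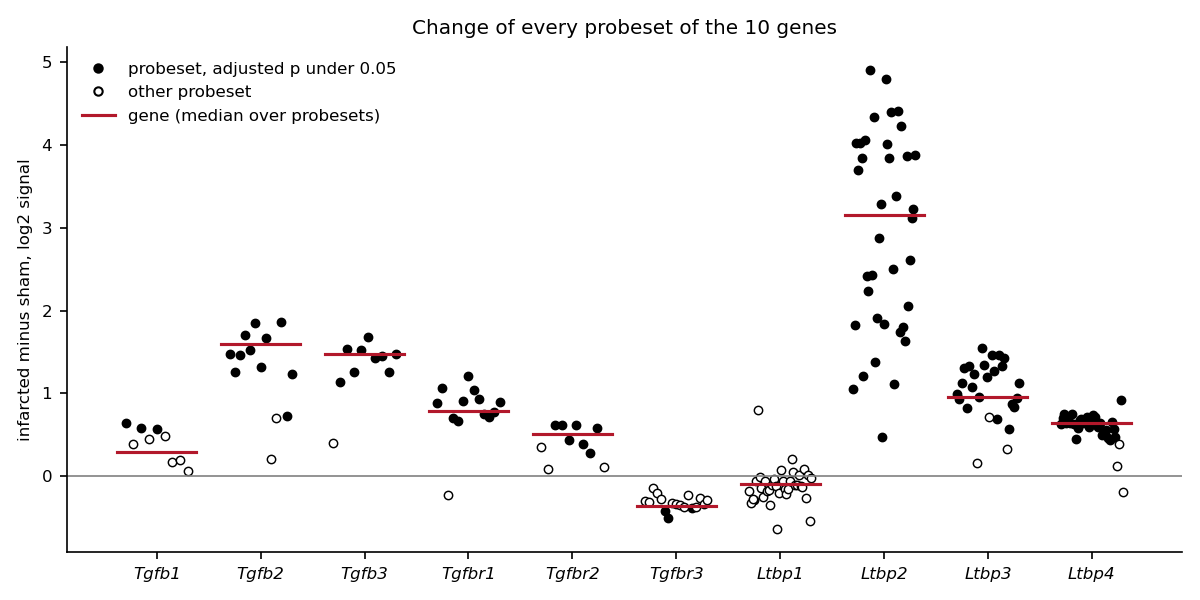
Change of each of the 205 probesets, infarcted minus sham, on the log2 scale, by gene. Filled points were called over all probesets, open points were not, and the red line is the change of the gene-level median. The 37 Ltbp2 probesets spread from 0.47 to 4.91, and those of Tgfbr3 all lie below 0. Of the Ltbp1 probesets 29 lie below 0 and 7 above it.

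Other genes of the pathway were described in 6 lists by role, without the 10 genes and chosen with earlier results of these data known. The lists hold 99 genes, of which 98 were measured. Of these, 58 were called higher and 3 lower, against 10.1% and 10.2% of all genes. Among 18 genes listed under latent TGF-beta activation, not all of them activators themselves, 12 rose and 1 fell (median change 0.43). Thbs1, the activator thrombospondin 1, rose 7.14-fold, with means of 10.75 ± 0.28 in infarcted and 7.91 ± 0.53 in sham arrays. Mmp14, a membrane metalloproteinase, rose 3.53-fold and Mmp2, a gelatinase, 3.22-fold. Itgb6, the epithelial integrin subunit that activates TGF-beta1, fell by 0.65 (limma adjusted p = 0.0244). Its call ended without any 1 of 6 arrays, infarcted replicates 3, 5 and 6 and sham replicates 2, 3 and 4 (adjusted p up to 0.0573), and without infarcted replicates 4 and 5 together (adjusted p = 0.0601).

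Among 14 microfibril and elastic fibre genes, which encode the matrix that latent binding proteins attach to, 13 rose and none fell (median change 1.08). Fn1, fibronectin, rose 6.13-fold, with means of 12.24 ± 0.31 in infarcted and 9.63 ± 0.31 in sham arrays. Mfap5, a fibrillin-binding microfibril protein, rose 5.18-fold, and Eln, elastin, 4.16-fold. Among 12 genes for other proteins that bind or hold TGF-beta at the cell surface and in the matrix, 8 rose and 1 fell (median change 0.42). The small leucine-rich proteoglycans Fmod, Aspn and Lum rose by 3.74, 2.13 and 1.34 on the log2 scale. Htra1, a secreted serine protease, fell by 0.26 (limma adjusted p = 0.00831).

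None of 14 genes listed under intracellular TGF-beta signalling was called by limma, and none had an unadjusted p under 0.05 (median change 0.01). They include Smad2, Smad3 and Smad4, and also Acvrl1, a receptor at the cell surface. Foxh1 was low in signal, with means of 4.80 in infarcted and 4.79 in sham arrays. Strap, a receptor-associated protein, had the smallest p of the list, with a change of -0.17 (adjusted p = 0.183). With the mean over probesets 2 of the 14 were called higher and 1 lower, against 13.4% and 14.5% of all genes under that summary. Among 13 genes listed as feedback regulators, most of which restrain the pathway, 7 rose and 1 fell (median change 0.35). Pmepa1 and Ldlrad4, related membrane proteins that hold receptor-activated Smads, rose 2.21-fold and 1.83-fold, and Smurf2, a ubiquitin ligase for the receptors, 1.28-fold. Usp15, a deubiquitinase of the receptor complex and not itself an inhibitor, fell by 0.26 (limma adjusted p = 0.027). That call ended without any 1 of 5 arrays, infarcted replicates 3, 5 and 6 and sham replicates 2 and 4 (adjusted p up to 0.0608), and without infarcted replicates 4 and 5 together (adjusted p = 0.0696).

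Among 27 measured genes that are known to respond to TGF-beta in fibroblasts and other cells, 18 rose and none fell (median change 0.69). Comp, Postn and Cthrc1, which encode secreted matrix proteins, rose 13.3-fold, 8.45-fold and 5.25-fold. Postn, periostin, had means of 12.56 ± 0.13 in infarcted and 9.49 ± 0.34 in sham arrays (SD, n = 6 each). Many other signals also act on these genes, and their rise does not measure TGF-beta activity.

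**Figure D5:**
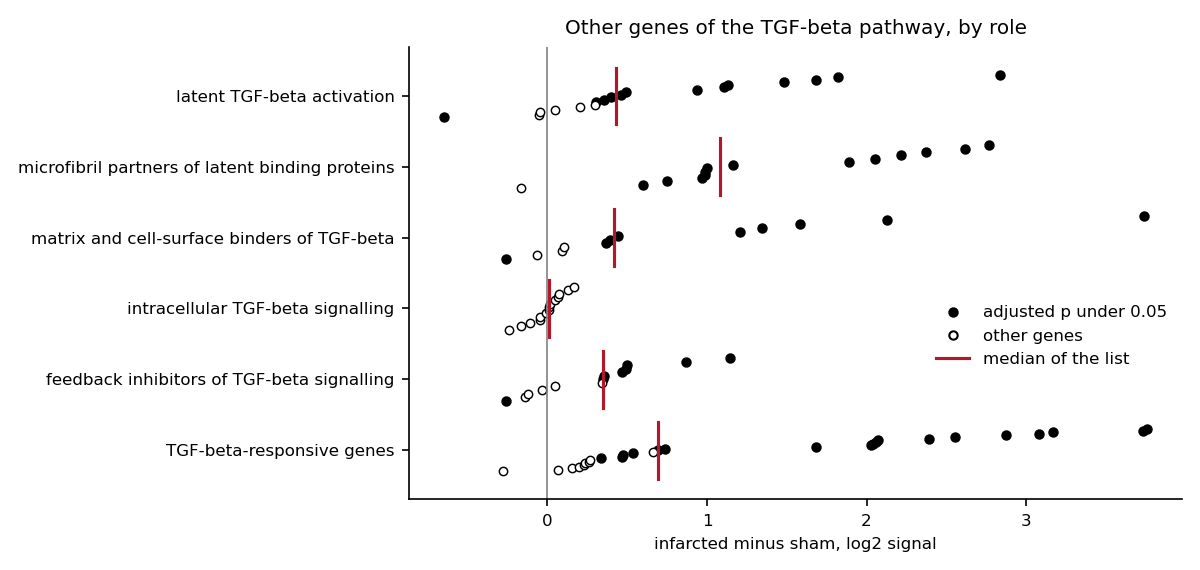
Change of each gene, infarcted minus sham, on the log2 scale, in 6 lists of pathway genes by role. Filled points were called at an adjusted p under 0.05 over all genes, open points were not, and red lines are list medians. The 14 genes listed under intracellular signalling cluster near 0, and 13 of 14 microfibril genes lie to the right of it as filled points.

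For the members that changed by at least 0.5, the genes with the most similar values were found by the root mean square difference over the 12 arrays. Each value was taken relative to the gene's sham mean. Values so scaled keep the size of the change, so only genes with a change of similar size can lie near. For Ltbp2 these were Col12a1 (0.23), Postn (0.24) and Timp1 (0.26). The nearest gene to Tgfb2 was Tgfb3 (0.19), followed by Odz3 and Svep1. Tgfb3 lay nearest to Fat1 (0.12), Pqlc3 and Piezo2. For Ltbp3 the nearest were Lrp1 (0.069), Ccdc80 and Mxra8, and for Ltbp4 they were Nid1 (0.055), Ptprj and App. Tgfbr1 lay nearest to Gpm6b (0.12), Gpx3 and Plod2, and Tgfbr2 to Casp8 (0.069), Lpp and Gas7.

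Markers of several cell types moved with these genes. Of 10 fibroblast markers 9 were called higher, and their mean signal ran from 10.35 to 10.71 in infarcted and from 9.22 to 9.44 in sham arrays. Infarcted replicate 3 had the highest mean of all arrays for fibroblast markers and for macrophage and monocyte markers. It was also the highest infarcted array for 4 of the 10 genes, Tgfb2, Tgfb3, Ltbp2 and Ltbp3. Tgfbr1, Tgfbr2 and Ltbp4 were highest in infarcted replicates 5, 4 and 6. Of the 10 fibroblast markers 5 are also in the pathway lists. Of 10 macrophage and monocyte markers 8 were called higher, with means of 8.30 to 8.79 in infarcted and 7.63 to 8.02 in sham arrays. Of 8 valve and cartilage-like markers 6 were called higher, with means of 7.49 to 8.05 in infarcted and 6.06 to 6.33 in sham arrays. Comp and Fmod, with the largest changes of that list (3.74 each), are also in the pathway lists. So is Tagln of the smooth muscle and pericyte markers. The part of cell makeup in the changes of the 10 genes was not tested.

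Of 10 smooth muscle and pericyte markers 5 were called higher (8.84 to 9.02 in infarcted, 8.43 to 8.73 in sham arrays), and of 10 endothelial markers 1 (9.85 to 10.11 in infarcted, 9.78 to 10.02 in sham arrays). Atrial markers ran from 6.98 to 8.60 in infarcted and from 6.40 to 7.07 in sham arrays, highest in infarcted replicate 4, with 2 of 6 called higher. The 2 were Nppa (change 2.04) and Dkk3 (change 1.59), and Myl7, Sln, Myl4 and Bmp10 were not called. Adipocyte markers ran from 5.74 to 7.66 in infarcted and from 5.77 to 6.05 in sham arrays, highest in infarcted replicate 5, with 1 of 8 called lower. Without infarcted replicates 4 and 5 together, the same 8 of the 10 genes were called and Tgfbr3 changed by -0.45 (limma adjusted p = 0.00456). Mesothelial markers (0 of 8 called, 5.44 to 6.66 in infarcted, 5.50 to 6.01 in sham arrays, highest in infarcted replicate 5) were low in signal. So were T and B cell markers (1 of 7 higher, 5.40 to 5.83 in infarcted, 5.09 to 5.68 in sham arrays) and neutrophil markers (0 of 6 called, 1 of them with an unadjusted p under 0.05, 4.75 to 5.39 in infarcted, 4.26 to 5.65 in sham arrays). Of 3 measured blood markers 1 was called lower (6.96 to 7.65 in infarcted, 7.11 to 8.13 in sham arrays). None of the 10 cardiomyocyte markers was called by limma, and 3 had an unadjusted p under 0.05.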

How the data were processed

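RNA of 6 infarcted and 6 sham hearts was labelled with biotin and hybridised, 1 array per heart. Per the submitters' processing notes, Affymetrix Power Tools made the deposited values. How probes were summarised and normalized, and the tool version, are not stated in the sources used here. Values were read as log2 signals, the deposited scale, from their range (1.52 to 14.37) and nearly equal array medians, and the log base is not stated.

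Of 241576 probesets, 212097 have 1 gene symbol in the platform annotation, and symbols were updated through RefSeq. The gene comparison used limma (version 3.58.1, under R 4.3.3; lmFit, eBayes, two-sided, Benjamini-Hochberg over all genes) without a block, and the scripts were tested on simulated data. No label gives a batch. The members and lists were chosen with earlier results of these data known. Named pathway genes are the up to 3 called genes of a list with the smallest p, the smallest p in the other direction, or the smallest p where none was called. Similar genes are the 3 nearest, predicted genes left out. The alternatives were other probeset summaries, filters, scalings, variance settings, a replicate block and arrays left out. Figures used matplotlib 3.10.9. Some listed genes are not reported here.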

Additional observations from a re-analysis of the deposited data

Results flagged for a closer look

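In groups of 6 arrays, the highest or lowest array was looked at against the rest by Dixon's gap test in 58 pairs of a gene and a group (29 named genes), and 4 exceeded its 95% critical value. Chance alone flags about 1 in 20 groups. Tgfbr2 in infarcted replicate 2 was at 8.82, below the next infarcted array at 9.03. Thbs1 in infarcted replicate 1 was at 10.2, below the next at 10.75. Fmod in infarcted replicate 2 was at 9.80, below the next at 10.29. Strap in sham replicate 6 was at 9.08, below the next sham array at 9.28. In the infarcted cases the low array was still above every sham array.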

How the results depend on the processing

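Over 19 alternatives, 9 of the 10 genes kept their direction and their side of the threshold, and Tgfb1 passed under 1 of them, the mean over probesets (0.40, adjusted p = 0.0108). Its change ran from 0.15 to 0.39 with arrays left out in turn. The changes of Ltbp2 ran from 2.93 to 3.20 over the settings other than single arrays left out, and those of Tgfbr3 from -0.45 to -0.32. In the pairs, Tgfbr1 minus Tgfbr2 ran from 0.18 to 0.32 with an array left out and was 0.26 without infarcted replicates 4 and 5 (adjusted permutation p = 0.13). The exact test without those arrays has fewer regroupings. With the mean over probesets 2 genes of the intracellular signalling list were called higher and 1 lower, against 2720 higher and 2954 lower of all genes. The lower counts of the activation and the feedback lists ran from 0 to 1 with arrays left out, and both were 0 without infarcted replicates 4 and 5, where fewer arrays were tested. Centred on array medians, 8 of the 205 probesets were lower in place of 4, and the median change of all genes shifted by -0.04, and all genes split into 1748 higher and 2956 lower in place of 2050 and 2074. Quantile normalization gave 1815 higher and 2653 lower. With a replicate block 3802 of 20352 genes were called in place of 4124, and no member's call changed (Tgfbr3 adjusted p = 0.0281). Deviations of same-numbered arrays from their group means correlated between -0.05 and 0.10, with 1 of 6 over 0.1, so the shared numbers were not read as pairs. Low signal limits the T and B cell, neutrophil and mesothelial marker lists.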
